A study of Mus musculus with 12 samples.

Results

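The simple epithelial keratins are represented here by 8 genes, *Krt7*, *Krt8* and *Krt80* of type II and *Krt18*, *Krt19*, *Krt20*, *Krt23* and *Krt36* of type I, chosen by gene symbol and found as 8 of the 54532 rows of an RNA-seq expression table. Keratins are the intermediate filament proteins of epithelial cells, and each filament is built from pairs of a type II and a type I protein. In the intestine *Krt8* is the main type II keratin and *Krt18* and *Krt19* are its main partners, *Krt20* marks differentiated cells toward the surface of the crypt, and *Krt7* is scarce in normal colon. *Krt23* is an inducible type I keratin of epithelial cells, whereas *Krt36* is classed with the hair keratins and *Krt80* is better known from stratified epithelia, so the name of the set fits these last members less well.

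The samples were colonoids, organoids grown from colonic epithelial stem cells of young adult mice, in 12 libraries with 3 in each of 4 groups. Controls carried floxed *Hmox1* alleles without Cre (*Hmox1* fl/fl), and colonoids labelled KO carried the floxed alleles with Vil1-Cre, which recombines in villus and crypt epithelium and removes heme oxygenase 1, the enzyme that degrades heme. Each genotype received vehicle or hemin, an oxidised form of heme, at 200 µM for 24 hours, in medium conditioned by L-WRN cells that all groups shared. The labels do not say whether replicates are separate cultures or animals, so p-values measure only the spread between these samples, which may be technical.

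Expression is given as FPKM, that is, fragments scaled by the length of the gene and the size of the library, from 11648801 to 25101868 fragments a library. *Hmox1* was at 6.85 to 7.90 FPKM in vehicle-treated controls and 2.11 to 3.14 in vehicle-treated colonoids labelled KO, but at 382 to 503 in hemin-treated controls and 1271 to 1393 in the hemin-treated libraries labelled KO, against their label. A value per gene does not show which part of *Hmox1* its fragments cover, so it cannot tell whether the floxed segment was removed. The genotype label of hemin-treated KO replicate 3 is also written differently, as floxed with Vil1-Cre. The transcript *Gm23935*, annotated as a miRNA of 57 bases, took 16.8% of the summed FPKM of vehicle-treated control replicate 1, 29.0% of hemin-treated control replicate 1 and 21.05% of hemin-treated KO replicate 2, and 1.18% to 2.81% of the other libraries. FPKM is divided by gene length, so for a gene this short these shares exceed its shares of fragments. Fragments over genes differed between replicates by a chi-square per degree of freedom of 17.4 or more in each pair that holds 1 of these 3 libraries, 43.1 between hemin-treated control replicates 2 and 3, and 1.93 to 3.51 in the other pairs. Epithelial identity was present in every library, with the summed FPKM of 5 epithelial markers (*Epcam*, *Cdh1*, *Vil1*, *Cdx1* and *Cdx2*) between 1510 and 2777, while fibroblast, leukocyte, endothelial and tuft cell marker sums did not exceed 0.33.

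In the mouse genome (mm10, coordinates of the deposited table) the type II members and *Krt18* lie on chromosome 15 and the other type I members on chromosome 11, and every member is annotated as protein coding. *Krt8* (chr15:101996698-102004482, minus strand) and *Krt18* (chr15:102028180-102032027, plus strand) are separated by 23697 bases and are transcribed away from each other. *Krt7* lies at chr15:101411043-101430313 and *Krt80* at chr15:101347444-101370162. On chromosome 11 *Krt20* lies at chr11:99428403-99438150, *Krt23* at chr11:99477974-99493137, *Krt36* at chr11:100102007-100105626 and *Krt19* at chr11:100140810-100148665.

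Promoter sequence in the RefSeq table (GRCm38.p6) was found for 6 of the 8 members, not for *Krt19* and *Krt80*, and the 250 bases before each start were searched on both strands for 5 motifs. A TATA box was searched as TATAAA and a CCAAT box by its name. GC boxes, which bind Sp1, were searched as GGGCGG. Sites of the stress-responsive factor AP-1 were searched as TGANTCA. The core of the antioxidant response element, bound by NRF2, was searched as TGACNNNGC. That core was matched in *Krt20* and *Krt36*, both type I genes. Both windows are shown 5′ to 3′ on the strand of the gene with motif matches in capitals.
Krt20, chr11:99438154-99438403, minus strand: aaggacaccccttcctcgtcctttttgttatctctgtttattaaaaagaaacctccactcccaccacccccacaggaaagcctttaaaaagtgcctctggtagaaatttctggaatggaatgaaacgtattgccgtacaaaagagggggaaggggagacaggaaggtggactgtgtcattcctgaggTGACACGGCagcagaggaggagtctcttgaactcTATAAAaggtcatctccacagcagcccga
Krt36, chr11:100105627-100105876, minus strand: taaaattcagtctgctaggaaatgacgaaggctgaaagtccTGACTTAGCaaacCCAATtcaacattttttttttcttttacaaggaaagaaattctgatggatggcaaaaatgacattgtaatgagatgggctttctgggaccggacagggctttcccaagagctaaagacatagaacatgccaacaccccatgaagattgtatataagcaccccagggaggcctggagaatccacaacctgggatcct
In *Krt20* the match TGACACGGC ends 54 bases and TATAAA 23 bases before the start. In *Krt36* the match TGACTTAGC ends 200 bases before the start, next to a CCAAT box. The core was present in 10.2% of 32851 promoters of the same length, TATAAA in 12.4% and CCAAT in 33.8%, so these are common letters and not evidence of binding. *Krt7* held 4 GC boxes, a motif in 32.7% of promoters, and the windows of *Krt8*, *Krt18* and *Krt23* held none of the 5 motifs (AP-1 was present in 6.75% of promoters). The windows of *Krt7*, *Krt8*, *Krt18* and *Krt23* lie wholly or partly inside the gene bounds of the deposited table, which start farther upstream.

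The 8 members spanned a wide range of FPKM, a scale already divided by gene length, and their order hardly depended on the group. *Krt8* was highest, at 3834 ± 200 FPKM (SD, n = 3) in vehicle-treated controls, followed by *Krt19* at 2529 ± 222, *Krt18* at 762 ± 46.1, *Krt20* at 173 ± 2.86 and *Krt7* at 108 ± 11.4. *Krt23* averaged 2.81 ± 0.399 FPKM, and *Krt80* at 0.532 ± 0.135 and *Krt36* at 0.306 ± 0.0368 were barely detected. *Krt8*, *Krt19*, *Krt18*, *Krt20*, *Krt7* and *Krt23* followed each other in this order in all 4 groups with no overlap between neighbours. Only *Krt36* and *Krt80* traded places, *Krt80* being higher in both control groups and *Krt36* in vehicle-treated colonoids labelled KO, and in hemin-treated colonoids labelled KO their ranges overlapped. The length used for *Krt7* (7049 bases) and *Krt80* (6393 bases) exceeds the 1437 to 1958 bases of the others, which lowers their FPKM for the same number of fragments.

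**Figure D1:**
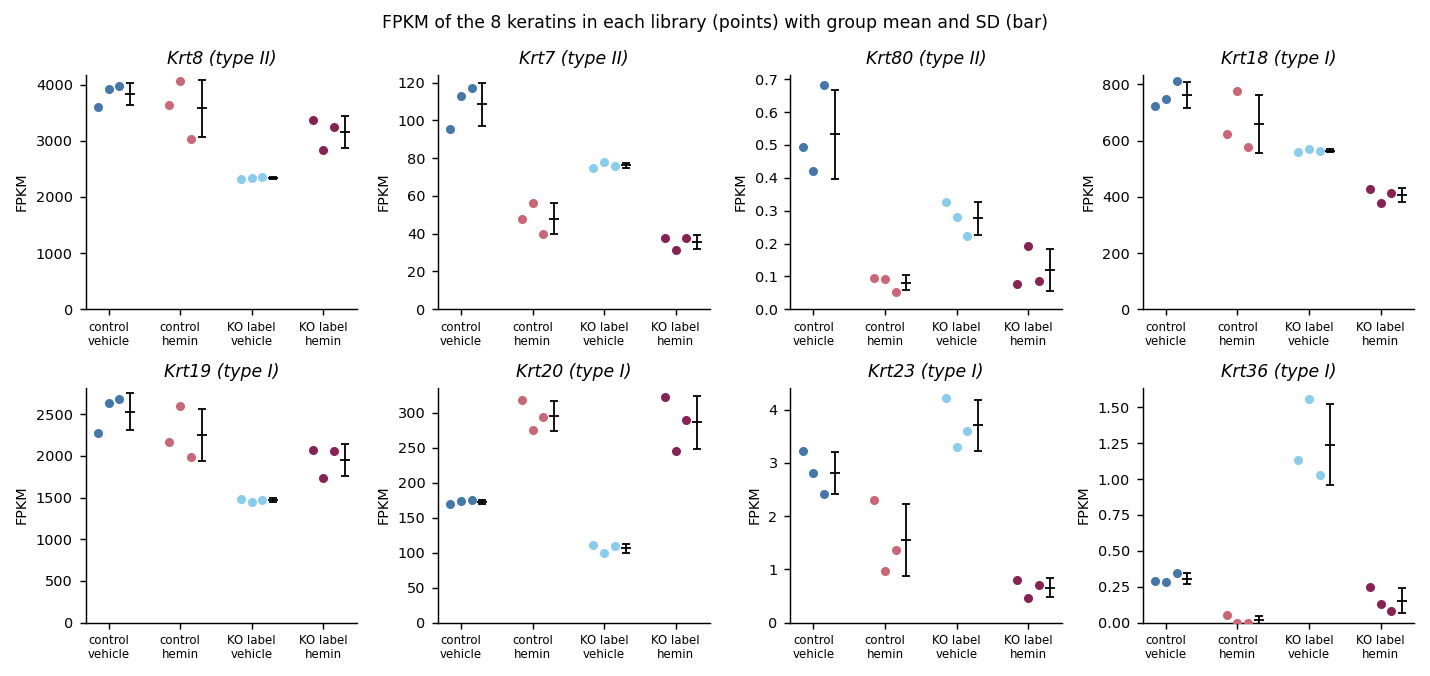
FPKM (vertical axes, linear from 0) of the 8 keratins in each of the 12 libraries (points, ordered by replicate number within a group), with the mean and SD of the 3 libraries as a bar. *Krt20* is higher and *Krt7* lower in every hemin-treated library than in any vehicle-treated library, and *Krt8* and *Krt19* are lowest in vehicle-treated colonoids labelled KO.

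The first question was what hemin did to the keratins of control colonoids. *Krt20*, the keratin of differentiated colonocytes, rose, while *Krt7* and *Krt23* fell and the main keratins *Krt8*, *Krt18* and *Krt19* did not pass the test. Here rose and fell mean an adjusted p under 0.05 by limma on log2(FPKM + 1), and a gene was called where its log2 fold change also exceeded 1 in size. A gene was tested where at least 3 libraries reached 1 FPKM. *Krt80* missed this filter, and *Krt36* passed it only through the 3 vehicle-treated libraries labelled KO, where it is high, so its differences from that group were partly set by the filter and it is left out of the counts and medians of members below. Of the other 6 members 1 rose and 2 fell, against 23.2% and 26.7% of all 12740 genes tested, and 1 was called, lower, against 5.93%, and none higher, against 2.17%. The median log2 fold change was -0.20 over these 6 and -0.01 over all genes tested.

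Vehicle-treated controls had 95.6, 113 and 117 FPKM of *Krt7* and hemin-treated controls 47.9, 56.1 and 40.05. The groups were well apart, a 2.26-fold lower mean with hemin (log2 fold change -1.17, SE 0.12, limma adjusted p = 1.7e-05), and *Krt7* was the called gene. *Krt20* went from 170, 173 and 175 FPKM to 318, 276 and 293, every treated library above every untreated one, a 1.71-fold rise (0.77, SE 0.10, adjusted p = 6.2e-05).

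*Krt8* read 3605, 3919 and 3976 FPKM with vehicle and 3633, 4062 and 3039 with hemin in controls, and the groups overlapped (-0.11, 95% interval -0.35 to 0.13, adjusted p = 0.44). Its partner *Krt19* read 2275, 2630 and 2683 FPKM against 2172, 2595 and 1986 (-0.17, interval -0.42 to 0.08, adjusted p = 0.23). *Krt18* read 724, 749 and 813 FPKM against 624, 775 and 579 (-0.22, interval -0.44 to 0.01, adjusted p = 0.096). For these main keratins the spread of the hemin-treated controls, highest in replicate 2 and lowest in replicate 3, was as large as the difference, and without replicate 2 both *Krt18* (-0.34, adjusted p = 0.0043) and *Krt19* (-0.28, adjusted p = 0.046) were lower. *Krt18* was also lower with FPKM rescaled to a fixed sum per library (TPM) that excluded *Gm23935* (-0.33, adjusted p = 0.031).

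*Krt23* went from 3.22, 2.80 and 2.42 FPKM to 2.30, 0.973 and 1.37 (-0.61, SE 0.17, adjusted p = 0.012, or 0.056 with only the control libraries in the fit), with replicate 1 of the hemin-treated controls just below the lowest vehicle value. *Krt36* rested on 8 fragments in each vehicle-treated control and on 1, 0 and 0 fragments with hemin. The summed rate was at least 1.97-fold higher with vehicle against a floor of 3 fragments a library, with hemin under that floor. The limma test on these few fragments did not hold (adjusted p = 0.018, but 0.059 without vehicle-treated replicate 3 and 0.068 without the 3 *Gm23935*-rich libraries). *Krt80*, which missed the filter, went from 52, 46 and 60 fragments to 7, 7 and 4, a 6.48-fold lower rate with a 95% counting interval of 3.97 to 11.2. Counting intervals cover counting error only.

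In colonoids labelled KO all 6 members other than *Krt36* passed with the same treatment. *Krt20*, *Krt8* and *Krt19* rose and *Krt7*, *Krt18* and *Krt23* fell, 3 and 3 of 6 against 29.9% and 30.4% of all genes tested. *Krt20* was called higher (background 4.87%) and *Krt7* and *Krt23* lower (background 8.07%). The median over the 6 was -0.03, against 0.00 over all genes tested.

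*Krt20* stood at 111, 99.1 and 109 FPKM with vehicle and at 322, 246 and 290 with hemin, a 2.69-fold rise with the groups far apart (1.41, SE 0.10, adjusted p = 3.8e-07). *Krt7* stood at 75.0, 77.8 and 75.7 FPKM and then at 37.9, 31.6 and 37.6, a 2.14-fold fall (-1.08, SE 0.12, adjusted p = 1.8e-05). It just missed the size threshold, at -0.995, without hemin-treated KO replicate 2. *Krt23* stood at 4.22, 3.29 and 3.61 FPKM and then at 0.799, 0.462 and 0.713, the hemin values resting on 18, 17 and 16 fragments (-1.51, SE 0.17, adjusted p = 2.1e-05).

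The main keratins passed in opposite directions here, while none of them passed in controls. *Krt8* read 2317, 2329 and 2362 FPKM with vehicle and 3374, 2833 and 3249 with hemin (0.43, SE 0.11, adjusted p = 0.0057), and *Krt19* read 1488, 1445 and 1470 against 2073, 1734 and 2054 (0.41, SE 0.11, adjusted p = 0.0088). *Krt18* fell, from 560, 569 and 565 to 427, 379 and 412 FPKM (-0.48, SE 0.10, adjusted p = 0.0019). The groups did not overlap for any of these, but the rise of *Krt8* and *Krt19* depends on the scaling. As TPM over all genes, which puts the median of all genes at -0.31, it was 0.09 (adjusted p = 0.78) and 0.07 (adjusted p = 0.84), or 0.40 and 0.38 relative to that median. *Krt18* fell under each scaling tried.

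*Krt36* went from 31, 45 and 29 fragments to 6, 5 and 2 in colonoids labelled KO, an 8.37-fold lower rate with a counting interval of 4.69 to 16.2. This is a description without a test, since the vehicle-treated libraries are those that took it past the filter. *Krt80* went from 34, 31 and 24 fragments to 7, 29 and 8, a 2.095-fold lower rate with an interval of 1.44 to 3.08. The 29 fragments are those of the deepest library, hemin-treated KO replicate 2, which also had the highest *Krt80* FPKM of its group, and without it the rate was 3.38-fold lower (1.94 to 6.29).

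**Figure D2:**
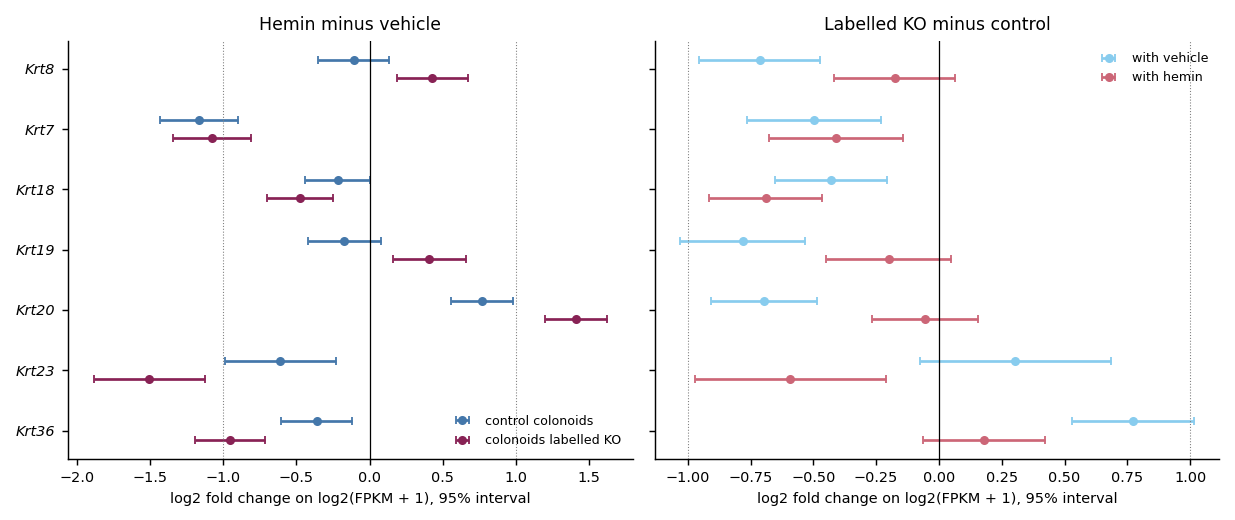
Log2 fold changes on log2(FPKM + 1) (horizontal axes) with 95% intervals from limma for the 7 members tested, for hemin against vehicle (left) and for colonoids labelled KO against controls (right), n = 3 libraries a group, dotted lines at -1 and 1, where *Krt36* passed the filter only through vehicle-treated colonoids labelled KO. *Krt20* is at 0.77 and 1.41 and *Krt7* at -1.17 and -1.08 with hemin, and *Krt8*, *Krt19*, *Krt18*, *Krt20* and *Krt7* are below 0 with vehicle in the comparison of genotypes, where as TPM none of these 5 passed.

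Without hemin, the 5 abundant keratins were all lower in colonoids labelled KO than in controls. These are *Krt19* (-0.78, SE 0.11), *Krt8* (-0.71, SE 0.11), *Krt20* (-0.70, SE 0.10), *Krt7* (-0.50, SE 0.12) and *Krt18* (-0.43, SE 0.10), with limma adjusted p between 1.8e-04 and 0.0078. In FPKM, *Krt8* was 1.64-fold, *Krt19* 1.72-fold, *Krt20* 1.62-fold, *Krt7* 1.42-fold and *Krt18* 1.35-fold lower, and no library of one genotype reached the range of the other. Lower levels were found for 5 of the 6 members other than *Krt36*, against 16.8% of all genes tested, and higher levels for none, against 17.4%. The median over the 6 was -0.60, against 0.02 over all genes tested.

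No member was called (6.8% of all genes were), although 5 of the 6 had an unadjusted p under 0.05, against 42.4% of all genes tested, and limma-voom on recovered fragments called none of the 6. *Krt36* had 31, 45 and 29 fragments in vehicle-treated colonoids labelled KO against 8 in each control, a 4.10-fold higher rate with a counting interval of 2.61 to 6.69, and since it passed the filter only through these libraries, its being higher there is a description and not counted. *Krt80* was 1.89-fold lower, with an interval of 1.45 to 2.48. *Krt23* did not pass the test (0.30, interval -0.08 to 0.68, adjusted p = 0.21), although its values did not overlap.

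As TPM, which moves the median of all genes to 0.15 in this comparison, none of the 5 abundant keratins passed. The fold changes were -0.55 for *Krt20* (adjusted p = 0.065), -0.63 for *Krt19* (0.083), -0.56 for *Krt8* (0.10), -0.35 for *Krt7* (0.31) and -0.28 for *Krt18* (0.42). Relative to the median of all genes they were -0.70, -0.79, -0.72, -0.51 and -0.44, against -0.71, -0.80, -0.73, -0.52 and -0.45 on FPKM. All 5 passed again when *Gm23935* was left out of the sum. *Krt8* also missed the threshold with no filter on low values, at the same fold change (adjusted p = 0.10). Of the 5 epithelial markers 1 was lower in colonoids labelled KO with vehicle, against 16.8% of all genes, the transcription factor *Cdx2* (-2.03, adjusted p = 6.1e-06), and none was higher. *Epcam* (-0.06), *Cdh1* (-0.09), *Vil1* (-0.20) and *Cdx1* (0.38) did not pass and the median was -0.09. The enteroendocrine marker sum was 524 to 549 FPKM against 30.0 to 35.3 in controls. The median log2 fold change of its 4 markers was 2.25, with *Neurod1* not past the filter without the vehicle-treated libraries labelled KO. Of 6 crypt base and cycling markers 4 were higher in colonoids labelled KO, against 17.4% of all genes, and none was lower. The part of these markers in the keratin difference was not tested, and in bulk samples fewer cells of a type and less RNA per cell cannot be told apart.

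With hemin, *Krt18* was lower in colonoids labelled KO than in controls. Hemin-treated controls had 624, 775 and 579 FPKM and hemin-treated colonoids labelled KO 427, 379 and 412, a 1.62-fold lower mean (-0.69, SE 0.10, adjusted p = 3.3e-04) that passed in every alternative fit. *Krt20* reached nearly the same level in both, 296 ± 21.2 and 286 ± 38.2 FPKM (-0.05, interval -0.26 to 0.16, adjusted p = 0.70). The intervals of *Krt8* (-0.18, -0.42 to 0.06) and *Krt19* (-0.20, -0.45 to 0.05) also included 0, with overlapping groups, although *Krt8* passed without hemin-treated control replicate 3 (-0.29, adjusted p = 0.023). Cell type markers differed beside these results. In colonoids labelled KO with hemin 5 of 6 goblet markers were lower, against 14.7% of all genes tested (median -1.57, against 0.04). Their sum was 412 to 487 FPKM against 926 to 1320 in controls. The enteroendocrine sum was 382 to 475 FPKM against 18.5 to 30.3 (median log2 fold change of its 4 markers 2.02), and *Cdx2* was lower (-1.27, adjusted p = 2.5e-04). The part of these markers was not tested.

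*Krt7* (-0.41, SE 0.12, adjusted p = 0.022) and *Krt23* (-0.59, SE 0.17, adjusted p = 0.021) were lower in colonoids labelled KO with hemin, without overlap. Neither held in every fit. Without the 3 *Gm23935*-rich libraries *Krt7* was at -0.32 (adjusted p = 0.13) and *Krt23* at -0.30 (0.14). Leaving out hemin-treated control replicate 1 gave -0.41 (0.055) and -0.39 (0.059), and leaving out hemin-treated KO replicate 2 gave -0.33 (0.084) and -0.50 (0.076). With only the hemin-treated libraries in the fit adjusted p was 0.091 for both, and with no filter it was 0.05003 and 0.056, at unchanged fold changes. For *Krt7*, leaving out hemin-treated control replicate 2 gave -0.29 (0.066) and TPM gave -0.42 (0.26). In all, 3 of the 6 members other than *Krt36* were lower, against 14.7% of all genes tested, none was higher, against 19.7%, and none was called, against 6.01%. Unadjusted p was under 0.05 for 3 of the 6, against 43.5% of all genes, and limma-voom called *Krt23* lower. For *Krt80* the rate was 1.63-fold higher in colonoids labelled KO with an interval of 0.924 to 3.00, and 1.01-fold (0.475 to 2.13) without hemin-treated KO replicate 2, so a difference was not detectable at this depth. *Krt36*, with 6, 5 and 2 fragments against 1, 0 and 0, was too low for a fold. Its adjusted p was 0.24 by limma and fell to 0.042 in limma-voom and 0.045 with a pseudocount of 0.1, from the same few fragments, and no difference is read from it.

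Whether hemin acted differently in the genotypes was tested as the interaction, the log2 fold change in colonoids labelled KO minus that in controls. It was positive for *Krt20* (0.64, SE 0.13, adjusted p = 0.0056), *Krt19* (0.58, SE 0.16, adjusted p = 0.022) and *Krt8* (0.54, SE 0.15, adjusted p = 0.028) and negative for *Krt23* (-0.90, SE 0.24, adjusted p = 0.021), 3 and 1 of 6 members, against 13.3% and 10.5% of all genes tested. No member was called (5.13% of genes were), 4 of the 6 had an unadjusted p under 0.05, against 35.4% of genes, and limma-voom called *Krt23* (-1.61, adjusted p = 0.016). For *Krt7* the interaction was 0.09 (interval -0.29 to 0.47, and -0.06 as TPM) and for *Krt18* it was -0.26 (interval -0.58 to 0.06).

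The larger rise of *Krt20* started from the lower vehicle level of colonoids labelled KO and ended at the level of the controls. Its interaction passed in each fit except that on TPM (0.50, adjusted p = 0.35). For *Krt36*, whose vehicle level in colonoids labelled KO took it past the filter, the value is only described. It was -0.59 on FPKM and 0.13 in limma-voom, which models the few fragments directly. The interactions of *Krt8* and *Krt19* depended on the scaling, the filter and the block. As TPM they were 0.39 (adjusted p = 0.57) and 0.43 (0.54), and as TPM without *Gm23935* 0.42 (0.13) and 0.46 (0.099). With no filter the fold changes were unchanged and adjusted p was 0.50 and 0.29, and with the replicate block 0.060 and 0.050. For *Krt23* no filter gave 0.054. All 3 were also lost when single libraries were left out. For *Krt8* these were vehicle-treated control replicates 2 and 3, every vehicle-treated replicate labelled KO and hemin-treated KO replicates 1 and 3 (adjusted p up to 0.070). For *Krt19* they were vehicle-treated replicates 2 and 3 of both genotypes and hemin-treated KO replicates 1 and 3 (up to 0.059). For *Krt23* they were vehicle-treated control replicate 3, vehicle-treated KO replicate 1 and hemin-treated KO replicate 2 (up to 0.059). The interaction of *Krt18* passed without hemin-treated control replicate 3 (-0.35, adjusted p = 0.0495).

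Because filaments need both types, the summed FPKM of each type was compared. Type II sums were 3943 ± 211 in vehicle-treated controls, 3626 ± 522 in hemin-treated controls, 2412 ± 23.1 in vehicle-treated and 3188 ± 286 in hemin-treated colonoids labelled KO. Type I sums were 3467 ± 262, 3207 ± 402, 2143 ± 23.3 and 2646 ± 251 in the same order. The ratio of type II to type I was 1.19 to 1.21 in hemin-treated colonoids labelled KO and 1.08 to 1.18 in the other 9 libraries, so that group stood above the rest by a small margin.

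The make-up of the sums varied more, and ratios within a library do not depend on its scaling. *Krt8* over *Krt18* was 4.89 to 5.23 in vehicle-treated controls, 5.24 to 5.82 in hemin-treated controls, 4.09 to 4.18 in vehicle-treated and 7.48 to 7.91 in hemin-treated colonoids labelled KO. The 4 groups did not overlap, the control groups only just, and the hemin-treated colonoids labelled KO stood farthest from the rest. *Krt20* made up 5.00% ± 0.310 of type I FPKM in vehicle-treated controls and 4.96% ± 0.245 in vehicle-treated colonoids labelled KO, against 9.34% ± 1.54 and 10.8% ± 0.544 with hemin. With hemin the libraries labelled KO were at 10.4% to 11.4% and the controls at 7.56% to 10.3%, without overlap, while with vehicle the genotypes overlapped. The share of *Krt18* was 22.0%, 20.5%, 26.3% and 15.4% in the order used above. *Krt7* held 2.75% and 3.16% of type II FPKM with vehicle and 1.32% and 1.12% with hemin, in controls and colonoids labelled KO. These ratios are given as a description, without a test.

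**Figure D3:**
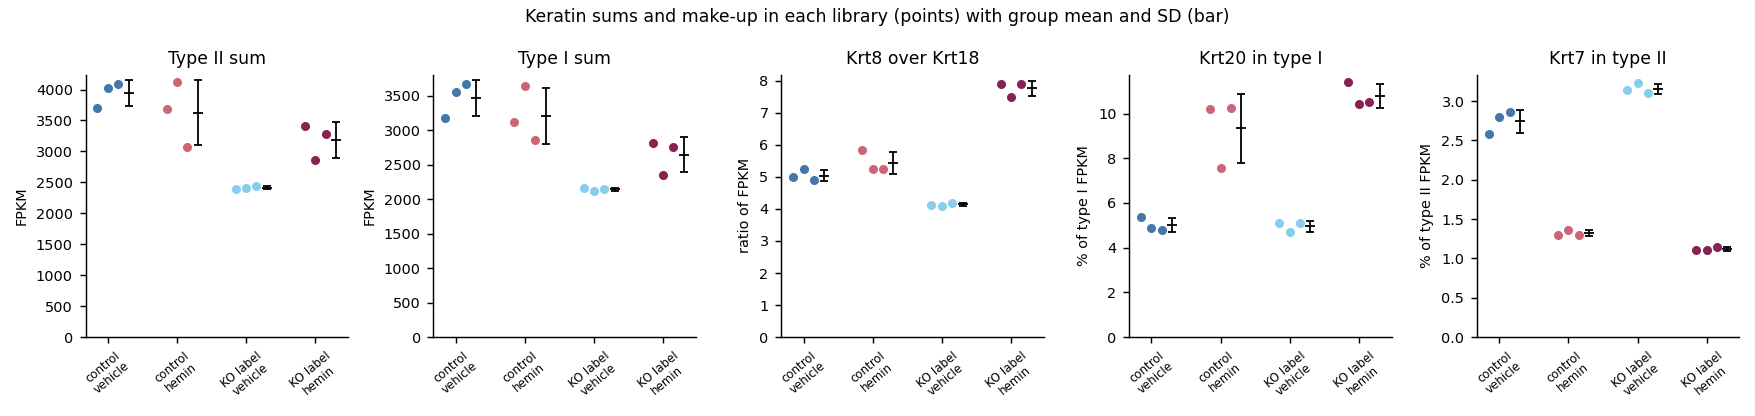
Summed FPKM of type II and type I members, the ratio of *Krt8* to *Krt18* FPKM, and the shares of *Krt20* in type I and *Krt7* in type II FPKM (vertical axes from 0) in each library (points), with the mean and SD of 3 libraries as a bar. The *Krt8* to *Krt18* ratio is 7.48 to 7.91 where colonoids labelled KO received hemin and 5.82 or less elsewhere.

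Markers of crypt position moved beside the hemin results. The summed FPKM of 8 surface colonocyte markers was 4136 to 4481 with vehicle and 6916 to 10129 with hemin in controls, and 4290 to 4449 and 7724 to 9089 in colonoids labelled KO, but single markers went both ways. Of the 8, 4 rose and 3 fell in controls, where 23.2% and 26.7% of all genes did, and 3 rose and 4 fell in colonoids labelled KO, where 29.9% and 30.4% did. Of 6 crypt base and cycling markers, *Ascl2*, *Axin2*, *Mki67* and *Top2a* all fell with hemin in both genotypes, where 26.7% and 30.4% of all genes did. *Lgr5* and *Smoc2* fell too, but passed the filter only through vehicle-treated libraries, so their falls are a description and not counted. The sum of the 6 markers went from 91.0 to 102 down to 31.1 to 38.7 in controls and from 133 to 137 down to 46.2 to 56.0 in colonoids labelled KO. The goblet cell sum was 1357 to 1646 with vehicle and 926 to 1320 with hemin in controls, where 4 of 6 markers fell, against 26.7% of all genes. In colonoids labelled KO it was 1462 to 1529 and 412 to 487, and 5 of 6 fell, against 30.4%. The part of these shifts in the keratin results was not tested.

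The genes whose profile over the 12 libraries lay nearest to a called keratin, by root mean square difference of centred log2(FPKM + 1), were *Gipc2*, *Slc22a5* and *Slc35f5* for *Krt20* (0.112 to 0.118), *Aacs*, *Col4a1* and *Col4a2* for *Krt7* (0.106 to 0.134) and *Zbed3*, *Sidt1* and *Hnrnpa1* for *Krt23* (0.159 to 0.214). *Gipc2* averaged 34.3 and 56.6 FPKM in controls and 23.5 and 60.5 in colonoids labelled KO, with vehicle and hemin. *Aacs* averaged 71.3 and 31.6 FPKM and then 44.5 and 23.7.

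The table holds 47 other keratin symbols, of which 7 passed the filter. With hemin 3 of these were called lower in controls, and 2 lower and 1 higher in colonoids labelled KO. *Krt4* and *Krt84* passed the filter only through vehicle-treated libraries, *Krt14* did not pass it without the vehicle-treated controls, and *Krt6a* passed only through hemin-treated colonoids labelled KO. These counts were thus at least partly set by the filter, and they are a description not set against the share of all genes. *Krt4*, a type II keratin of non-cornified squamous epithelium, had 46.9, 58.3 and 51.9 FPKM in vehicle-treated controls and 0.288, 0.317 and 0.201 with hemin, a 195-fold lower summed rate with a counting interval of 126 to 320.2. In colonoids labelled KO it had 10.9, 13.4 and 12 FPKM and then 0.0326, 0.0797 and 0, at least 150.4-fold lower against the floor of 3 fragments a library. On FPKM it was of the order of *Krt7* in vehicle-treated controls and near 0 with hemin.

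The hair keratin *Krt84* rested on 52, 51 and 52 fragments in vehicle-treated controls, against 0, 2 and 0 after hemin, and on 91, 112 and 102 against 0, 3 and 1 in colonoids labelled KO. *Krt14*, the type I keratin of basal squamous cells, had 131, 252 and 157 fragments in vehicle-treated controls, the group that took it past the filter, and 16, 17 and 0 with hemin. In colonoids labelled KO it had 29, 24 and 33 fragments and then 4, 6 and 7, a 5.24-fold lower rate with an interval of 3.09 to 9.41. *Krt4* was lower in colonoids labelled KO than in controls with vehicle (-2.02, adjusted p = 3.2e-08). *Krt6a*, a wound-induced type II keratin, had 0 fragments in each vehicle-treated library labelled KO and 59, 60 and 48 with hemin, at least 17.9-fold higher against the floor of 3 fragments a library, while controls had 7, 17 and 10 and then 1, 5 and 1. *Krt87* fell in colonoids labelled KO (-0.64, adjusted p = 6.1e-04), and *Krt10* and the pseudogene *Krt8-ps* did not pass. *Krt8-ps*, at 8.24 to 19.0 FPKM, resembles *Krt8* and may share reads with it.

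The squamous keratins were not accompanied by other squamous markers at like levels. *Trp63*, the basal squamous regulator, had at most 2 fragments in any library and *Krt5* at most 7. The sum of the 6 squamous markers was 52.0 to 66.9 FPKM in vehicle-treated controls and 13.2 to 15.9 in vehicle-treated colonoids labelled KO, most of it *Krt4*, and at most 1.22 with hemin.

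**Figure D4:**
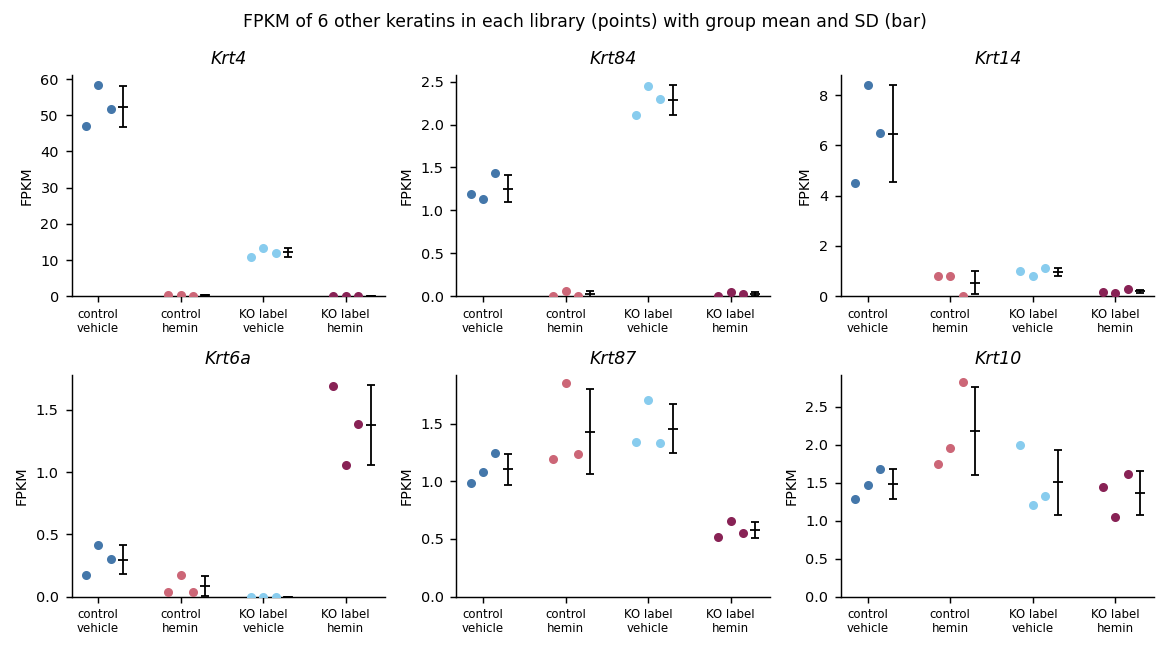
FPKM (vertical axes, linear from 0) of 6 other keratins that passed the filter, in each library (points) with the mean and SD of 3 libraries as a bar. *Krt4* and *Krt84* are near 0 in every hemin-treated library, and *Krt6a* is above 1 only in hemin-treated colonoids labelled KO.

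Keratin filaments end at desmosomes, the cell to cell junctions, where desmoplakin (*Dsp*) and plakophilins tie them to cadherins. Of 13 desmosome genes 9 were tested. With vehicle 8 of the 9 were lower in colonoids labelled KO, against 16.8% of all genes tested, and the median was -0.41. *Dsp* was at 90.3 ± 2.00 FPKM against 137 ± 15.02 in controls (-0.59, adjusted p = 1.4e-04, or 0.16 as TPM). With hemin 7 rose in colonoids labelled KO (median 0.45), against 29.9% of all genes, and 3 rose in controls (median 0.02), against 23.2%, and the interaction was positive for 6 of 9, against 13.3%. As TPM, where the share of all genes passing is not given, 10 were tested and 1 was lower with vehicle (median -0.27, against 0.15 over all genes). With hemin 2 rose and 2 fell in colonoids labelled KO (median 0.08, against -0.31), and the interaction was positive for 1. With *Gm23935* left out of the TPM sum 7 of 10 were lower with vehicle, 5 rose with hemin in colonoids labelled KO and the interaction was positive for 5. The exception was *Pkp1*, plakophilin 1, which fell from 8.68 ± 0.257 to 1.86 ± 0.0854 FPKM in controls (-1.76, adjusted p = 1.7e-09) and was higher in colonoids labelled KO than in controls with hemin (1.60, adjusted p = 1.7e-09). It fell with hemin in colonoids labelled KO as well (-0.90, adjusted p = 1.0e-07).

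Hemidesmosome and cytolinker genes join keratin to the basal membrane and to other filaments, and 9 of 10 were tested. Of these 5 were lower in colonoids labelled KO with vehicle and 1 higher, against 16.8% and 17.4% of all genes. Between genotypes with hemin 5 were higher in colonoids labelled KO and 1 lower, against 19.7% and 14.7%. The interaction was positive for 5, against 13.3%. With hemin 6 rose and 2 fell in colonoids labelled KO, against 29.9% and 30.4%, and 1 rose and 3 fell in controls, against 23.2% and 26.7%, so the falls were near the share of all genes. As TPM, where the share of all genes passing is not given, 2 were lower with vehicle (median -0.21, against 0.15 over all genes). With hemin 3 rose and 2 fell in colonoids labelled KO (median 0.49, against -0.31). None passed between genotypes with hemin, and the interaction was positive for 1. *Cd151*, a tetraspanin bound to laminin-binding integrins, rose from 44.1 ± 0.375 to 78.9 ± 10.8 FPKM in controls (0.81, adjusted p = 2.5e-05) and from 40.8 ± 0.421 to 112 ± 6.59 in colonoids labelled KO (1.43, adjusted p = 2.1e-07), with an interaction of 0.61 (adjusted p = 0.0049, or 0.34 as TPM). *Eppk1*, epiplakin, which binds keratin, fell in both genotypes (-1.26 in controls, -1.36 in colonoids labelled KO). *Evpl*, envoplakin, fell in controls (-1.08, adjusted p = 1.5e-04), and *Dst*, dystonin, was lower in colonoids labelled KO with vehicle (-1.01, adjusted p = 3.0e-06).

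Among 12 genes for proteins that bind or regulate keratins, 5 rose and 2 fell with hemin in each genotype, where 23.2% and 26.7% of all genes rose and fell in controls and 29.9% and 30.4% in colonoids labelled KO. As TPM, where the share of all genes passing is not given, 1 rose and 2 fell in each. The TPM medians were -0.13 in controls and -0.04 in colonoids labelled KO, against -0.18 and -0.31 over all genes. *Sfn*, 14-3-3 sigma, differed most, from 90.8 ± 3.81 to 62.7 ± 11.8 FPKM in controls (-0.54, adjusted p = 0.0055) and from 70.3 ± 1.43 to 174 ± 23.1 in colonoids labelled KO (1.28, adjusted p = 9.5e-06), and its interaction was 1.83 (adjusted p = 5.6e-05). Only 4 of 16 other intermediate filament genes were tested. The nuclear lamin *Lmnb1* fell with hemin in controls (-2.07) and in colonoids labelled KO (-1.89), and *Lmnb2* (-1.07) was called lower in the latter. *Nefm*, a neurofilament gene, passed the filter only through vehicle-treated libraries labelled KO, at 155, 173 and 171 fragments there and 2 to 25 elsewhere.

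**Figure D5:**
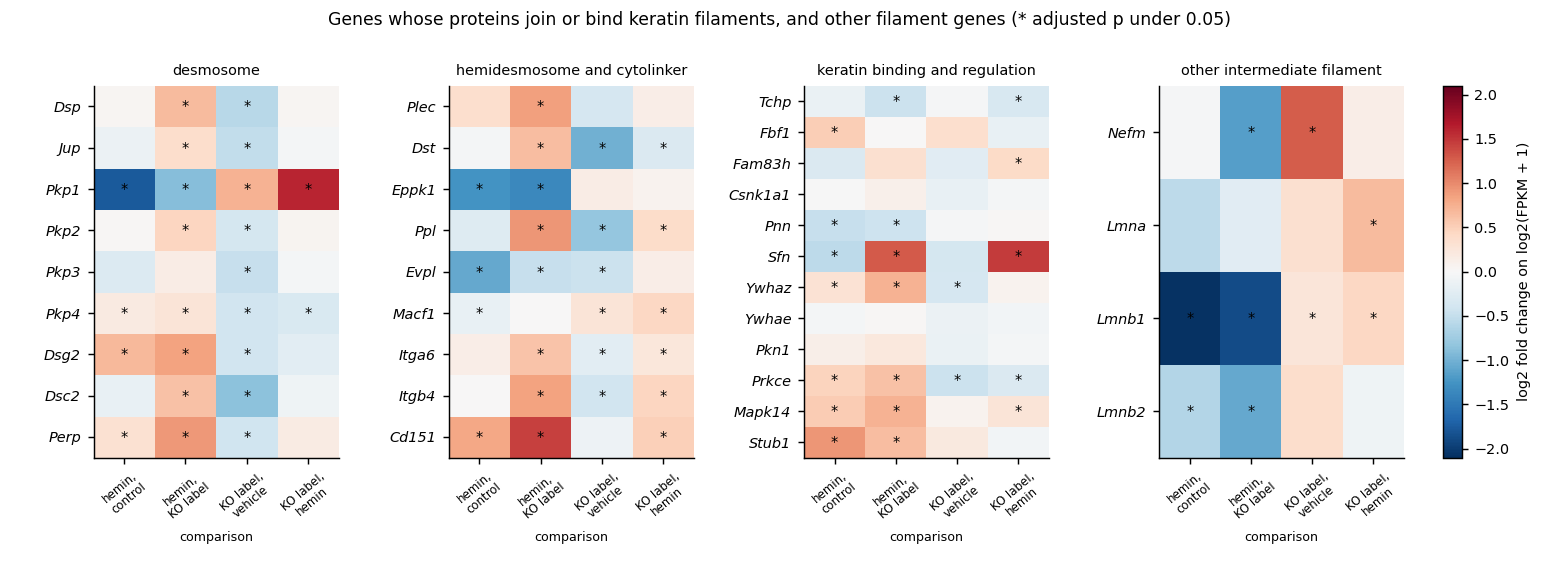
Log2 fold changes (colour, log2(FPKM + 1) scale) of the tested genes of 4 lists (rows) in 4 comparisons (columns), hemin against vehicle in each genotype and colonoids labelled KO against controls with vehicle and with hemin, with an asterisk at an adjusted p under 0.05, which for *Nefm* is partly set by the filter. Of 9 desmosome genes 8 are lower in colonoids labelled KO with vehicle (1 as TPM), and *Lmnb1* is strongly lower with hemin in both genotypes.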

How the data were processed

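Poly-A RNA of the 12 colonoid libraries was prepared, sequenced and processed by Novogene. The submitters' processing notes name fastp, HISAT2 2.0.5, featureCounts 1.5.0-p3 and mm10. The authors deposited FPKM for 54532 genes, and 100% of these values were whole multiples of 1 fragment (tolerance 0.01), so fragments were recovered for depths, counting intervals and the floor of 3 fragments a library. Other scalings (TPM, median-of-ratios), pseudocounts, filters, limma-voom and the removal of each library were alternatives. Median-of-ratios factors of the deposited columns ranged from 0.990 to 1.02, so the columns were already scaled to each other. The strand setting of the counting is not given in the sources used here.

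The filter on low values asked for 3 or more libraries with 1 FPKM or more (12740 genes, with 7 of the 8 keratins, *Krt80* missing). limma 3.58.1 (R 4.3.3) was fitted to log2(FPKM + 1), with 1 mean for each of the 4 groups and an intensity trend, on 8 residual degrees of freedom. Tests were two-sided with Benjamini-Hochberg adjustment over all genes tested, and called means an adjusted p under 0.05 together with a log2 fold change beyond 1 in size. Fold changes on this scale understate those of low genes. Rates of *Krt36*, *Krt80*, *Krt6a* and other low keratins were compared as summed fragments with exact 95% intervals. With 3 libraries against 3, a permutation test of 1 gene could not go below p = 0.1.

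The script was tested on simulated data. All keratins, other tested keratins, the genes called in each list, marker sums and the 3 nearest profiles were named by rule, and *Trp63*, *Krt5*, *Dsp* and *Krt8-ps* were added for description. The members and lists were chosen with earlier results of these data known. Groups came from the sample labels. Figures were drawn with matplotlib 3.10.9.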

Additional observations from a re-analysis of the deposited data

Results flagged for a closer look

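The response to hemin differed between the genotypes by the interaction test for 4 keratins, at 0.54 for *Krt8*, 0.58 for *Krt19*, 0.64 for *Krt20* and -0.90 for *Krt23* on the log2 scale, as fold change in colonoids labelled KO minus that in controls. *Krt8* and *Krt19* rose with hemin in colonoids labelled KO and did not pass the test in controls, *Krt20* rose in both, and *Krt23* fell in both. The interaction was not past the threshold as TPM for *Krt8*, *Krt19* and *Krt20*, with no filter for *Krt8*, *Krt19* and *Krt23*, and with the replicate block for *Krt8* and *Krt19*. For *Krt36* the value was -0.59 on FPKM and 0.13 in limma-voom, and no test is read from it, since it passed the filter on low values only through vehicle-treated colonoids labelled KO, the group in which it is high. With 3 libraries a group, single values were not tested as outliers.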

How the results depend on the processing

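Over 1116 comparisons of a result with its value under an alternative, 1018 kept their direction and side of the threshold. The counts of called keratins, over all 7 tested with *Krt36* included, were 1 for the hemin effect in controls, 3 for that in colonoids labelled KO and 0 in the genotype comparisons and the interaction. With hemin in controls 2 were called with a pseudocount of 0.1, in limma-voom, as TPM and as TPM without *Gm23935*. In the vehicle comparison of genotypes and in the interaction 1 was called under each of those 4. In the hemin comparison of genotypes 2 were called with a pseudocount of 0.1 and in limma-voom. By adjusted p alone 4, 7, 6, 3 and 5 passed, or 3, 6, 5, 3 and 4 without *Krt36*, in the order hemin effect in controls, hemin effect in colonoids labelled KO, genotypes with vehicle, genotypes with hemin and interaction. Leaving out 1 library at a time gave 1 to 1, 2 to 4, 0 to 0, 0 to 0 and 0 to 1.

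As TPM, type II sums of colonoids labelled KO were 67.3% of the vehicle-treated controls with vehicle and 71.1% with hemin, and type I sums 67.9% and 67.0%. Without *Gm23935* in the TPM sum they were 64.0%, 72.2%, 64.6% and 68.2%, against 61.2%, 80.9%, 61.8% and 76.3% as deposited. The sign changed in 7 of the comparisons, in 6 of them with neither value past the threshold. These were the interaction of *Krt36* in limma-voom (0.13, against -0.59), that of *Krt7* as TPM (-0.061), as TPM without *Gm23935* (-0.032) and without hemin-treated control replicate 3 (-0.033), the hemin effect on *Krt8* in controls without that replicate (0.0045, and down to -0.20 without other libraries), and *Krt20* between genotypes with hemin without the 3 *Gm23935*-rich libraries (0.104) and without hemin-treated KO replicate 2 (0.050, and down to -0.14 without other libraries). In colonoids labelled KO the hemin effect on *Krt8* and *Krt19* kept its fold changes with no filter (0.43 and 0.41) but missed the threshold (adjusted p = 0.31 and 0.18), as it did as TPM without *Gm23935* (0.20 and 0.18, adjusted p = 0.21 and 0.26). The causes were not tested. Low fragment counts limit *Krt23*, *Krt36* and *Krt80*.

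Libraries with the same replicate number did not deviate together (mean correlation -0.04 over 18 pairs, range -0.33 to 0.18, against 0.02 for other pairs), so the number was not taken as a pairing. With the replicate block the genes called were 1028, 1649, 863, 761 and 639, against 1033, 1648, 866, 766 and 654 without it, in the same order. Among the keratins the interactions of *Krt8* (0.54, adjusted p = 0.060) and *Krt19* (0.58, adjusted p = 0.050) no longer passed with the replicate block, which changed no other call. The TPM scaling without *Gm23935*, the removal of the 3 *Gm23935*-rich libraries and the rate ratios with each library left out were added after the data were seen.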
